A study of Mus musculus with 155 samples.

Results

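Oligodendrocyte progenitor cells (OPCs) derived from embryonic stem cells (ESCs) that expressed H3.3K27M were compared with OPCs that expressed WT-H3.3. The comparison holds 4 of the 155 samples of the series, taken by line from the count table of the OPC cultures, with 2 RNA-seq libraries of each line. The other samples of the series are ESC and retinoic acid (RA)-treated samples of these and further lines, measured by RNA-seq and by chromatin profiling. Both lines come from KH2 ESCs, a mouse line with a landing site for a single doxycycline (Dox)-inducible transgene, here a SNAP- and HA-tagged H3.3 that was either wild type or carried methionine in place of lysine 27. Both lines received Dox, for 24 h in 1 library and 72 h in the other, so the WT-H3.3 cells carry the agent and the tagged extra histone as well, and the endogenous H3.3 genes remained in both. OPCs were made through embryoid bodies that received RA and purmorphamine, an agonist of Smoothened, and were then plated in OPC medium. How many clones of each line were used is not given in the sources used here.

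H3.3 is the histone variant placed into chromatin outside of replication, and lysine 27 of H3 is the residue that Polycomb repressive complex 2 methylates. The methionine form, known from midline gliomas of childhood, lowers H3K27me3 across the genome of the cells that carry it. OPCs are cycling glial progenitors of the central nervous system. In the ventral neural tube they arise under Sonic hedgehog signalling from Olig2-positive progenitors, turn on Sox10, Pdgfra and Cspg4, and later give rise to myelinating oligodendrocytes, while BMP signals direct the same progenitors towards astrocytes.

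The libraries held 7499258 and 8303218 counts for H3.3K27M and 12387113 and 10496758 counts for WT-H3.3, at 24 and 72 h. Levels are given below in CPM, a library's counts scaled to a common total, with TMM factors of 0.982 to 1.02, always in the order 24 h and then 72 h. Over the 12467 genes tested, log2 CPM correlated at 0.985 and 0.989 within the lines and at 0.867 to 0.873 between them. The 72 h library differed from the 24 h library by more than sampling noise in both lines (chi-square per degree of freedom 9.58 for H3.3K27M and 10.8 for WT-H3.3), so all 4 were kept as separate libraries. Sample titles number the 72 h libraries replicate 1 and the 24 h libraries replicate 2, whereas the columns of the count table are all named replicate 2. The study describes its replicates as made weeks apart, and the titles and the columns disagree on whether these libraries are separate replicates. If the 2 libraries of a line come from 1 differentiation, line and differentiation cannot be told apart. The p-values here measure the spread between these libraries alone. Transcripts of the mitochondrial genome made up 2.04% and 2.15% of counts in H3.3K27M and 1.42% and 1.62% in WT-H3.3, and the 14 tested mitochondrial genes had a median log2 fold change of 0.92, whereas the medians of the other chromosomes except Y lay between -0.14 and 0.09. The 776 tested genes outside the annotation had a median of 0.73. Whether these library differences have a part in the results was not tested.

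The counts of the H3.3 genes were recorded first, as the nearest available check of the transgene, whose tag the count table does not separate. Whether reads of the transgene are counted under either gene was not tested. H3f3a, 1 of the 2 genes that encode H3.3, had 69.7 and 66.9 CPM in H3.3K27M and 24.7 and 27.03 CPM in WT-H3.3 (2.64-fold higher in H3.3K27M, log2 fold change 1.4 ± 0.15, adjusted p = 2.11e-05, where ± is the SE and each line has 2 libraries). H3f3b, the other gene, had 1073 and 1369 CPM in H3.3K27M and 1307 and 1521 CPM in WT-H3.3 and was not called (adjusted p = 0.281). Neither value separates the 2 forms of the protein, so the labels of the lines could not be checked from the counts.

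Markers of cell types were then set beside the label of the cells. Calls needed a fold above 2 or below 0.5 together with an adjusted p under 0.05 from the quasi-likelihood test of edgeR. Of the 8 OPC markers, 5 were higher and 2 were lower in H3.3K27M. Olig2, the transcription factor that starts the oligodendrocyte lineage, had 976 and 1003 CPM in H3.3K27M and 321 and 274 CPM in WT-H3.3 (3.33-fold higher), and its neighbour gene Olig1 had 582 and 665 CPM in H3.3K27M and 148 and 164 CPM in WT-H3.3 (4.00-fold higher). Cspg4, which encodes the NG2 proteoglycan, rose with them, at 73.0 and 97.5 against 8.30 and 10.3 CPM (9.20-fold higher). Sox8 (141 and 127 against 30.1 and 25.1 CPM) and Nkx2-2 (77.1 and 118 against 36.01 and 37.9 CPM), transcription factors of the same lineage, were 4.85-fold higher and 2.65-fold higher respectively. The defining receptor and the defining factor of committed OPCs ran the other way. Pdgfra, the PDGF receptor that drives OPC division, had 0.564 and 0.782 CPM in H3.3K27M and 15.1 and 23.2 CPM in WT-H3.3 (27.6-fold lower). Sox10 had 0.141 and 0.521 CPM in H3.3K27M and 1.86 and 3.37 CPM in WT-H3.3, which is 7.38-fold lower in H3.3K27M. Gpr17, a receptor of OPCs about to mature, had at most 10 counts in any library and was under the low-count filter.

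Mature myelin was close to absent from both lines. Mog, Mag and Mobp had 0 or 1 count in every library, and Mbp had 1.13 and 0.521 CPM in H3.3K27M and 1.19 and 2.45 CPM in WT-H3.3. The early transcription factors were thus present in both lines, but Olig2 is also found in the progenitors from which OPCs arise. Pdgfra and Sox10 were near 0 in H3.3K27M, with 4 and 6 counts and 1 and 4 counts. In WT-H3.3, Pdgfra reached 23.2 CPM and Sox10 stayed low, with 22 and 33 counts. Pdgfra was higher in WT-H3.3 together with the fibroblast markers given below, and the part of fibroblasts in its level was not tested. The markers therefore do not establish the cells of either line as committed OPCs. Both cultures are called OPCs below only because the labels call them so. Nes and Sox2, genes of neural progenitors in general, were within 2-fold and not called (Nes 228 and 209 against 208 and 212 CPM, adjusted p = 0.705, Sox2 242 and 271 against 202 and 191 CPM, adjusted p = 0.0251). Of the undifferentiated markers, Pou5f1 had no count in any library and Nanog had 0 and 1.17 CPM in H3.3K27M and 0.254 and 0 CPM in WT-H3.3. Muscle and immune markers summed to at most 1.10 CPM in any library, and Myod1, Myog and Ptprc were at 0 in all 4. The fibroblast markers Col1a1, Col3a1, Dcn and Lum summed to 12.3 and 7.30 CPM in H3.3K27M and 474 and 519.5 CPM in WT-H3.3. Endoderm markers summed to 6.48 and 7.30 CPM in H3.3K27M and 34.5 and 37.9 CPM in WT-H3.3, almost wholly through Foxa2 (5.92 and 6.65 against 33.8 and 36.8 CPM), since Afp and Alb had at most 9 counts. Epithelial markers (Epcam, Krt8, Krt18) summed to 0.845 and 1.17 CPM in H3.3K27M and 22.5 and 30.1 CPM in WT-H3.3. These levels move with the line in the same way as the groups of genes described below as lower in H3.3K27M, and their part in those results was not tested. In bulk RNA, fewer cells of a type and less RNA per cell cannot be told apart.

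**Figure D1:**
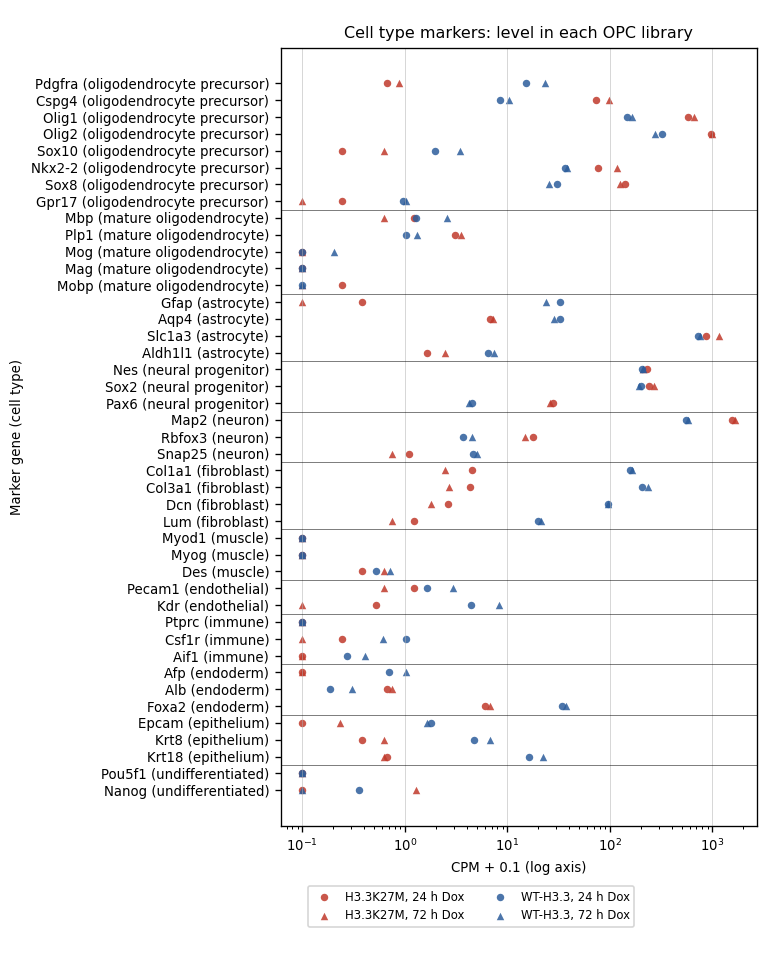
Level of each cell type marker in the 4 OPC libraries, as CPM plus 0.1 on a log axis, with H3.3K27M in red, WT-H3.3 in blue, circles for 24 h and triangles for 72 h of Dox. Olig1, Olig2, Cspg4, Sox8 and Nkx2-2 sit higher in both H3.3K27M libraries, Pdgfra and the 4 fibroblast markers sit higher in both WT-H3.3 libraries, and the 2 libraries of a line sit side by side.

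In all, 1608 genes were higher and 1874 lower in H3.3K27M, 27.9% of the 12467 tested (12.9% higher and 15.0% lower), and 57.5% had an unadjusted p under 0.05. Every called gene had the same direction at 24 h and at 72 h, and 1233 of the higher and 1589 of the lower genes were past 2-fold at both times. The calls came from these same libraries, so this agreement was largely set by the selection and is no separate support. The 72 h and 24 h libraries differed from each other in 23 genes (15 higher and 8 lower at 72 h) in the fit that also held the line. Log2 fold changes at the 2 times, which use different libraries, correlated at 0.913 over all genes tested. Of the 1608 higher genes, 77 were in the lists for DNA replication and mitosis and 1 (Thy1) in the fibroblast and extracellular matrix list, and 20 of the 1874 lower genes were in the latter, which leaves 1530 and 1854 genes outside these lists. Without 1 library at a time the total of 3482 called genes ranged from 3088 to 3658.

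**Figure D2:**
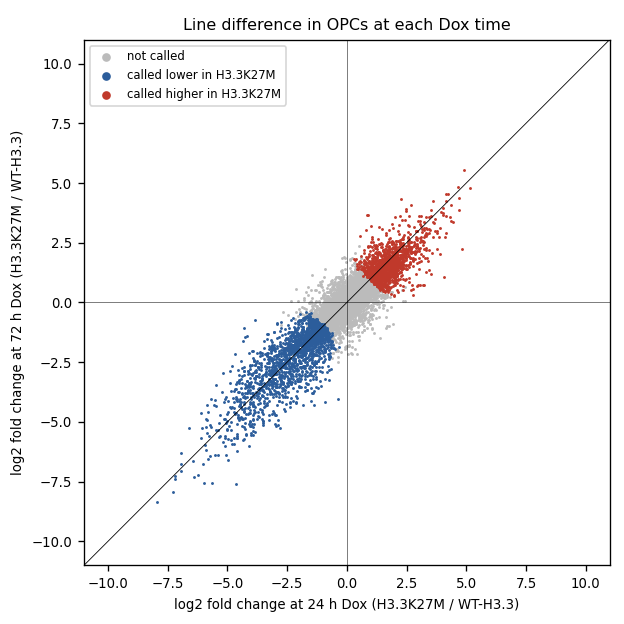
Log2 fold change (H3.3K27M over WT-H3.3) of each gene tested, at 24 h of Dox on the x axis and 72 h on the y axis, with called genes in red (1608 higher) and blue (1874 lower). Every called gene lies in the lower left or the upper right quadrant, along the diagonal line of equal fold change. The calls used these same libraries, which largely sets this position.

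The 12 genes of lowest p on the H3.3K27M side included 6 transcriptional regulators and 2 synaptotagmins. Tle6, a Groucho-related corepressor gene (chr10:81053649-81063818, minus strand, in NCBIM37, the assembly also named mm9), had 300.2 and 287 CPM in H3.3K27M and 16.4 and 12.04 CPM in WT-H3.3, 20.5-fold higher (log2 fold change 4.36 ± 0.17, adjusted p = 3.69e-08). Sox3 (chrX:58144545-58146605, minus strand), the SOXB1 factor of neural progenitors, had 369.9 and 394 CPM in H3.3K27M and 47.7 and 48.6 CPM in WT-H3.3, 7.93-fold higher (log2 fold change 2.99 ± 0.13, adjusted p = 6.78e-08). In both, the H3.3K27M libraries lay far above the WT-H3.3 libraries. Pou3f1 (234 and 168 against 21.4 and 21.9 CPM), a POU factor of early neural cells and glia, and Sall3 (327 and 331 against 55.5 and 61.7 CPM), a zinc-finger factor, were 9.25-fold higher and 5.61-fold higher. Lmo3 (63.4 and 68.8 against 5.59 and 5.61 CPM), which encodes a LIM-only cofactor, was 11.8-fold higher, and Rcor2 (139.8 and 145 against 21.3 and 24.8 CPM), which encodes a corepressor of the LSD1 complex, was 6.19-fold higher. The lines did not overlap in any of these 6 genes, which the rule for naming them required (76.7% of all genes tested did not overlap). Syt1, the calcium sensor of synaptic vesicle release, had 191 and 276 CPM in H3.3K27M and 10.5 and 14.2 CPM in WT-H3.3 (18.99-fold higher), and Syt13, another synaptotagmin, had 75.9 and 76.5 CPM in H3.3K27M and 8.90 and 7.75 CPM in WT-H3.3 (9.12-fold higher). Prkcb, a protein kinase C gene, was 7.83-fold higher (243 and 234.9 against 26.2 and 35.1 CPM), and the Wnt receptor gene Fzd9 was 10.1-fold higher (72.4 and 67.4 against 7.46 and 6.32 CPM). The rest of the 12 were Trp53i11 (9.57-fold higher, 222 and 242 against 20.3 and 28.3 CPM) and Ccbe1 (38.9-fold higher, 28.7 and 33.8 against 0.593 and 1.02 CPM), an extracellular protein gene with levels under 2 CPM in WT-H3.3.

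The 12 genes of lowest p on the WT-H3.3 side included 2 chemokines, an EGF receptor ligand, a heat shock protein and 2 matrix genes. Ccl2 (chr11:81849073-81850955, plus strand), the chemokine that attracts monocytes, had 1.41 and 1.17 CPM in H3.3K27M and 199 and 186 CPM in WT-H3.3, 148-fold lower in H3.3K27M (log2 fold change -7.21 ± 0.21, adjusted p = 1.78e-08). Ccl7 (chr11:81859214-81861027, plus strand), the next gene of the same chemokine cluster, had 0.845 and 0.391 CPM in H3.3K27M and 88.5 and 96.9 CPM in WT-H3.3 (149-fold lower). Both chemokines were thus under 2 CPM in both H3.3K27M libraries. Hspb8, a small heat shock protein gene, had 11.7 and 12.5 CPM in H3.3K27M and 412 and 371 CPM in WT-H3.3 (32.3-fold lower). Hbegf, which encodes an EGF receptor ligand, had 30.9 and 27.6 CPM in H3.3K27M and 609.8 and 526 CPM in WT-H3.3 (19.4-fold lower). Fn1, fibronectin, had 16.5 and 16.7 CPM in H3.3K27M and 692 and 557 CPM in WT-H3.3 (37.6-fold lower). These genes, unlike the chemokines, kept a clear level in H3.3K27M. Vgf, a neurosecretory protein gene (1.13 and 1.69 against 166 and 151 CPM), and Stmn2, a microtubule regulator of growing axons (0.845 and 0.521 against 154 and 112 CPM), were 110.3-fold lower and 193-fold lower. Lgals3, galectin-3, had 0.423 and 0.13 CPM in H3.3K27M and 99.7 and 84.98 CPM in WT-H3.3 (325-fold lower, with 4 counts in both H3.3K27M libraries together). Emp1 (68.4-fold lower), Myof (21.4-fold lower), Clu (25.99-fold lower) and Col3a1 (64.6-fold lower) completed the 12, and in each of them both WT-H3.3 libraries were above both H3.3K27M libraries.

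**Figure D3:**
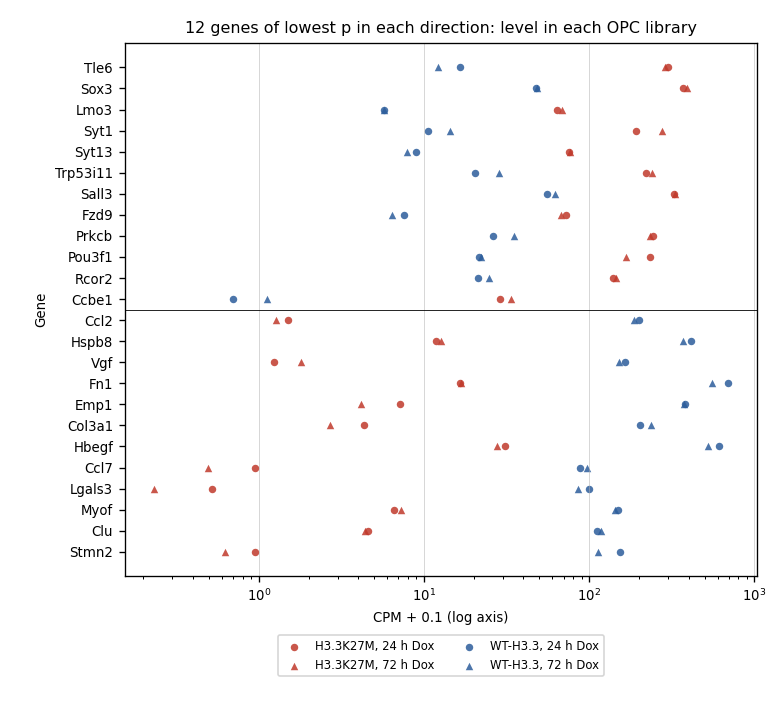
Level of the 12 genes of lowest p in each direction in the 4 OPC libraries, as CPM plus 0.1 on a log axis (colours and symbols as for the markers). In the upper block the red H3.3K27M points lie to the right of the blue WT-H3.3 points for every gene, from Tle6 to Ccbe1, and in the lower block to the left of them, from Ccl2 to Stmn2.

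Lists of genes for cell types and pathways were read against the 12.9% higher and 15.0% lower among all genes, whose median log2 fold change was 0. The low-count filter took in genes expressed in 1 line alone, and such members could hardly be called the other way. Counts under a stricter filter, at least 10 counts in every library, are therefore given below for some of the lists. The early oligodendrocyte, progenitor and proneural lists leaned to the H3.3K27M side. The OPC list had 10 of 16 tested members higher and 3 lower in H3.3K27M (median log2 fold change 1.39). Bcas1, a gene of newly forming oligodendrocytes, had 94.3 and 88.0 CPM in H3.3K27M and 7.63 and 13.2 CPM in WT-H3.3 (8.85-fold higher). The 3 lower members were Pdgfra, Sox10 and C1ql1, the last of which lost its call without any 1 library other than the 72 h WT-H3.3 library (adjusted p from 0.0965 to 0.506). The myelin list had 1 of 11 tested members higher and 4 lower in H3.3K27M (median log2 fold change -0.41), all of the called members at levels under 5 CPM except Nkx6-2, and without the 72 h WT-H3.3 library the number lower was 2. Among genes of neural progenitors and radial glia, 7 of 20 were higher and 2 lower (median 0.41). Pax6, the homeobox factor of dorsal and intermediate progenitors, was 6.30-fold higher (27.9 and 25.8 against 4.41 and 4.08 CPM), Dbx2 4.94-fold higher (85.2 and 146 against 24.5 and 22.3 CPM) and Hes5, a Notch target, 5.12-fold higher (61.4 and 72.7 against 9.49 and 16.9 CPM). The lower ones were Hopx, a gene of outer radial glia and quiescent stem cells (14.9-fold lower, 2.82 and 4.43 against 39.1 and 70.5 CPM), and Ednrb (3.96-fold lower, 31.8 and 27.2 against 124 and 110.3 CPM).

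Proneural transcription factors and their Notch partners had 9 of 13 tested members higher and 3 lower in H3.3K27M (median log2 fold change 1.48). Hes6, an antagonist of Hes1, was 4.31-fold higher (618 and 484 against 129 and 126 CPM). Sox11, a SOXC factor of neurons in formation, was 2.79-fold higher (1355 and 1051 against 368 and 494 CPM). The Delta ligands that proneural factors induce moved in the same direction, with Dll3 6.23-fold higher (31.6 and 21.9 against 2.88 and 5.81 CPM) and Dll1 4.94-fold higher (14.2 and 17.99 against 1.78 and 4.90 CPM). The lower members, Myt1l (3.14-fold lower), Ebf1 (2.27-fold lower) and Nhlh2, act in neurons at a later stage. Nhlh2, with at most 18 counts in a library, lost its call without the 72 h WT-H3.3 library (adjusted p = 0.0507). The Notch list as a whole split, with 5 of 22 tested members higher and 4 lower in H3.3K27M (median log2 fold change 0.37), and the number higher was 3 without the 72 h H3.3K27M library. Beside the Delta genes and Hes5, the lower members were the ligand gene Jag1 (2.81-fold lower, 41.3 and 54.3 against 151 and 118 CPM), the target gene Hey1 (18.1-fold lower, 3.95 and 4.30 against 78.9 and 71.3 CPM) and the noncanonical ligand gene Dlk1 (22.9-fold lower, 6.62 and 7.43 against 129 and 194 CPM). The lower member Hey2 (at most 31 counts in a library) lost its call without the 72 h WT-H3.3 library, at an adjusted p of 0.0684.

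Astrocyte genes split in a similar way. The list had 4 of 18 tested members higher and 5 lower in H3.3K27M (median log2 fold change 0.45), and 2 members were higher without the 72 h H3.3K27M library. Nfia, the factor of the gliogenic switch, was 3.31-fold higher (1379 and 1325 against 394 and 422 CPM). Gfap, the intermediate filament of astrocytes, had 32.5 and 23.8 CPM in WT-H3.3 against 0.282 and 0 CPM in H3.3K27M, and Aqp4, the water channel of their endfeet, was 4.41-fold lower (6.62 and 7.17 against 32.7 and 28.2 CPM). Fgfr3 was 6.81-fold lower (20.99 and 41.6 against 209.9 and 218 CPM). Slc1a3, the glutamate transporter shared by radial glia and astrocytes, was within 2-fold and not called (857 and 1162 against 722 and 756 CPM, adjusted p = 0.0327). The list of genes of reactive astrocytes, by contrast, had none higher and 11 of 12 lower in H3.3K27M (median -3.47). Its members included Vim, vimentin (3.78-fold lower, 967 and 1092 against 3959.6 and 3816 CPM), the hyaluronan receptor gene Cd44 (8.43-fold lower, 33.3 and 36.1 against 307 and 278 CPM) and Timp1 (32.6-fold lower, 1.41 and 0.391 against 30.3 and 27.95 CPM). Several of these genes are also active in fibroblasts, whose 4 markers summed to 12.3 and 7.30 CPM against 474 and 520 CPM. The part of fibroblasts in these values was not tested. Under the stricter filter, 3 members of the reactive astrocyte list were tested and 2 were lower.

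Genes of neurons did not move as 1 group. The pan-neuronal list had 7 of 25 tested members higher and 10 lower in H3.3K27M (median log2 fold change -0.27). Under the stricter filter, 19 were tested, with 6 higher and 5 lower. Which direction held more calls thus depended on the filter, and it also depended on which WT-H3.3 library was in the fit. Map2, the dendritic microtubule protein, was 2.86-fold higher (1560.0 and 1662 against 553 and 574 CPM), Elavl4, an RNA-binding protein of neurons, 2.62-fold higher (49.03 and 52.003 against 17.4 and 21.3 CPM) and Rbfox3, the NeuN antigen, 4.06-fold higher (17.6 and 14.6 against 3.56 and 4.39 CPM). On the other side were Nefm, a neurofilament subunit (6.18-fold lower, 9.30 and 8.08 against 50.9 and 56.6 CPM), Stmn4 (12.2-fold lower, 1.97 and 1.17 against 19.5 and 18.9 CPM) and Snap25, of the synaptic SNARE complex (5.68-fold lower, 0.986 and 0.652 against 4.49 and 4.90 CPM), together with Stmn2 and Vgf. Neurotransmitter and subtype identity genes were mostly under the filter, and of the 5 tested, En1, a midbrain and spinal interneuron factor, was higher (22.4 and 23.7 against 6.95 and 5.51 CPM) and Gad1, Prph, Gata2 and Gata3 were lower (median -3.07). Only 1 gene of this list was left under the stricter filter, and it was higher, so the filter largely set the direction of the list. Gata2, a factor of inhibitory neurons, had no count in H3.3K27M and 3.304 and 3.88 CPM in WT-H3.3 (at least 17.7-fold lower, against 3 counts over both libraries).

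Receptor and channel genes changed member by member. Of 23 glutamate and GABA receptor genes, 4 were higher and 6 lower in H3.3K27M (median 0.07), or 3 lower without the 72 h WT-H3.3 library. The metabotropic receptor gene Grm5 was 7.02-fold higher (197 and 291 against 26.3 and 43.6 CPM), Grm3 21.1-fold higher (8.59 and 15.4 against 0.508 and 0.612 CPM) and the NMDA receptor subunit Grin2c 14.9-fold higher (5.64 and 10.04 against 0.254 and 0.816 CPM). Gabrg1, a GABA-A subunit, was 2.97-fold higher (120.2 and 150.3 against 39.2 and 51.9 CPM), whereas Gabrb1, another subunit, was 9.74-fold lower (2.68 and 1.69 against 26.9 and 15.4 CPM). Voltage-gated channel genes had 7 of 26 tested members higher and 6 lower in H3.3K27M (median log2 fold change -0.24). The potassium channel genes Kcnc1 (4.55-fold higher, 70.2 and 58.6 against 13.8 and 14.5 CPM) and Kcnd3 (4.45-fold higher, 99.9 and 118 against 25.8 and 23.1 CPM) were higher, and Kcna6 (4.98-fold lower, 2.11 and 6.91 against 19.15 and 26.6 CPM) was lower. Axon guidance genes had 7 of 47 tested members higher and 12 lower in H3.3K27M (median log2 fold change -0.39). The Slit ligands went apart, Slit1 being 9.77-fold higher (59.2 and 65.2 against 5.17 and 7.65 CPM) and Slit2 5.198-fold lower (5.21 and 4.30 against 25.8 and 23.7 CPM). The ephrin receptor gene Epha5 (4.35-fold higher) and the ephrin Efna2 (3.41-fold higher) were higher, while the neuropilin gene Nrp2 (9.20-fold lower, 8.31 and 12.3 against 91.1 and 99.1 CPM) and the semaphorin gene Sema3c (15.9-fold lower, 0.564 and 1.56 against 17.9 and 16.9 CPM) were lower.

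The ligand gene Shh of the Hedgehog pathway and the floor plate factor Foxa2 were lower in H3.3K27M, and 2 coreceptor genes were higher. The list had 4 of 14 tested members higher and 4 lower in H3.3K27M (median log2 fold change -0.20). Shh, the ligand, had 0.845 and 0 CPM in H3.3K27M and 66.4 and 41.6 CPM in WT-H3.3 (129-fold lower). Foxa2, the factor of the floor plate and of endoderm, was 5.60-fold lower, and Nkx6-2, a ventral progenitor factor, was 29.3-fold lower (1.13 and 1.17 against 39.7 and 28.5 CPM). Gas1 and Cdon, which bind Shh at the cell surface, were 9.47-fold higher (124 and 86.0 against 12.4 and 9.69 CPM) and 4.58-fold higher (77.1 and 60.0 against 14.4 and 15.5 CPM). Smo, the signal transducer, had 19.02 and 21.9 against 9.66 and 10.1 CPM and was not past 2-fold without the 72 h H3.3K27M library (log2 fold change 0.95). Dorsal neural tube genes were lower for 6 of 7 tested members and higher for none (median -1.79), all at levels under 7 CPM, and the number lower was 3 without any 1 of the libraries other than that of H3.3K27M at 24 h. Msx1, a BMP target of the roof plate, had 0.845 and 2.35 against 6.27 and 5.41 CPM (3.60-fold lower). No dorsal gene was left to test under the stricter filter.

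Along the body axis, the Hox list had 7 of 19 tested members higher and 5 lower in H3.3K27M (median log2 fold change 0.28). The called members of the HoxA and HoxD clusters were all higher, among them Hoxa7 (2.57-fold higher, 90.03 and 115 against 36.9 and 42.8 CPM), Hoxa10 (4.56-fold higher, 10.1 and 17.7 against 3.05 and 3.06 CPM) and Hoxd8 (2.56-fold higher, 15.8 and 20.7 against 6.95 and 7.34 CPM). In the HoxB cluster, Hoxb9 was 3.82-fold higher (64.7 and 66.7 against 15.2 and 19.3 CPM) and Hoxb5 had 28.04 and 32.97 against 64.2 and 59.6 CPM, a difference that was within 2-fold without the 24 h library of either line (log2 fold change -0.91 and -0.97). The 4 called HoxC genes were all lower, among them Hoxc6 (12.1-fold lower, 0.845 and 0.782 against 8.81 and 11.2 CPM). Without the 24 h WT-H3.3 library, 2 of the 17 Hox genes then tested were lower. Genes that respond to RA had 1 of 12 tested members higher and 5 lower in H3.3K27M (median log2 fold change -0.66), and none was higher without the 72 h WT-H3.3 library. Aldh1a2 (0.141 and 0.13 against 4.24 and 5.41 CPM) and Aldh1a3 (7.84-fold lower, 1.69 and 1.04 against 10.2 and 11.3 CPM), which encode RA-making enzymes, and Crabp1 (4.32-fold lower, 3.95 and 2.48 against 15.1 and 12.5 CPM), an RA-binding protein gene, were among the lower ones.

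Genes of the TGF-beta superfamily pathway were mostly lower in H3.3K27M. The BMP and TGF-beta list had 1 of 26 tested members higher and 20 lower in H3.3K27M (median log2 fold change -2.98). The stricter filter left 13 tested, with 1 higher and 8 lower. Id4, a BMP target that holds back oligodendrocyte maturation, had 2.54 and 4.43 CPM in H3.3K27M and 67.7 and 80.9 CPM in WT-H3.3 (21.1-fold lower). Fst, the activin antagonist follistatin, had 0.704 and 1.69 CPM in H3.3K27M and 53.9 and 58.1 CPM in WT-H3.3 (45.5-fold lower). This target and this antagonist were thus lower together. Tgfbi was 22.7-fold lower (1.69 and 1.04 against 31.3 and 30.8 CPM) and Ltbp1, which stores latent TGF-beta in the matrix, 19.2-fold lower (1.97 and 2.48 against 44.9 and 41.1 CPM). Bmp7, the 1 member higher in H3.3K27M (28.04 and 43.8 against 14.6 and 15.9 CPM), was within 2-fold without the 72 h H3.3K27M library (log2 fold change 0.88).

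The Wnt list had 4 of 18 tested members higher and 6 lower in H3.3K27M (median log2 fold change -0.04), with 2 ligands and a target gene among the higher and 4 antagonists among the lower members. Axin2, the feedback target of beta-catenin, had 48.3 and 49.01 CPM in H3.3K27M and 9.32 and 9.08 CPM in WT-H3.3 (5.28-fold higher). Wnt7b was 4.58-fold higher (197 and 202 against 50.1 and 36.7 CPM) and Wnt7a 8.02-fold higher (19.02 and 26.8 against 2.03 and 3.77 CPM). The antagonists Frzb (10.4-fold lower, 10.7 and 12.3 against 105.3 and 134 CPM), Wif1 (11.6-fold lower, 4.37 and 4.69 against 44.5 and 61.1 CPM), Apcdd1 (10.2-fold lower, 5.50 and 7.30 against 51.9 and 79.2 CPM) and Dkk3 (4.48-fold lower, 5.07 and 2.61 against 15.2 and 19.08 CPM) were all lower in H3.3K27M. The FGF and MAPK list had 5 of 22 tested members higher and 6 lower in H3.3K27M (median log2 fold change 0.16). Etv5 and Etv4, ETS factors downstream of FGF, were 3.92-fold higher (1035 and 1058 against 248 and 287 CPM) and 2.37-fold higher (168 and 169 against 64.1 and 78.2 CPM), and the ligand gene Fgf1 was 4.66-fold higher (66.8 and 77.4 against 14.6 and 16.4 CPM). The receptor gene Egfr was 2.35-fold higher (56.1 and 67.1 against 28.2 and 24.1 CPM), whereas Fgfr2 was 4.21-fold lower (7.33 and 13.0 against 43.8 and 42.3 CPM) like Fgfr3, and the ERK phosphatase gene Dusp5 was lower as well (13.7-fold lower, 2.54 and 3.13 against 41.1 and 37.2 CPM). The IGF list had 2 of 14 tested members higher and 4 lower in H3.3K27M (median log2 fold change -0.06), among them Igf1 (21.96-fold lower, 0.423 and 0.391 against 9.23 and 9.18 CPM) on the lower and Igfbp4 (2.41-fold higher, 283 and 379.9 against 142 and 133 CPM) on the higher side. The other higher member, Igf2bp3, was within 2-fold without the 24 h WT-H3.3 library (log2 fold change 0.99), which leaves 1 higher.

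Inflammatory genes that were called were all lower in H3.3K27M. Of 16 chemokine and cytokine genes tested, 15 were lower and none higher (median -3.92, or -3.69 with the genes at 0 in H3.3K27M set to their bound). The stricter filter left 4 of them tested, all lower. Beside Ccl2 and Ccl7, Csf1, the growth factor of macrophages and microglia, was 14.5-fold lower (22.1 and 16.2 against 316 and 239.6 CPM), Cxcl1, which attracts neutrophils, 63.9-fold lower (0.282 and 0.391 against 20.7 and 24.4 CPM) and Spp1, osteopontin, 6.99-fold lower (13.9 and 8.47 against 68.5 and 87.8 CPM). Of the microglia and immune list, Cd68 was the only gene tested (0.986 and 1.04 against 1.78 and 2.24 CPM, adjusted p = 0.0983, not called), and Ptprc was at 0. The interferon list had none higher and 17 of 21 lower (median -2.54), and 1 was higher without the 72 h library of either line. Under the stricter filter, 10 interferon genes were tested and 6 were lower. Ifitm3, which blocks viral entry, had 20.1 and 15.5 CPM in H3.3K27M and 389 and 334 CPM in WT-H3.3 (20.3-fold lower). Usp18 (54.1-fold lower, 0.282 and 0.261 against 15.8 and 14.9 CPM), Isg15 (25.1-fold lower, 0.282 and 0.652 against 13.2 and 11.1 CPM) and Irf9, a subunit of the factor that binds interferon response elements (5.80-fold lower, 8.88 and 7.30 against 49.7 and 44.0 CPM), were lower too. Antigen presentation genes followed, with 7 of 10 lower and none higher (median -1.17), among them H2-D1 (9.51-fold lower, 12.4 and 13.0 against 112 and 130.0 CPM), H2-K1 (3.01-fold lower, 42.8 and 45.7 against 132 and 135 CPM), B2m (2.24-fold lower, 95.8 and 95.7 against 226 and 203 CPM) and the immunoproteasome subunit Psmb8 (18.1-fold lower, 0.282 and 0.391 against 6.61 and 6.12 CPM).

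Because the interferon genes moved together, the letters of the interferon-stimulated response element (GAAA, any 2 bases, GAAA) were searched on both strands of the 250 bases before each gene start in the RefSeq promoter table (GRCm38.p6), with overlapping matches counted. They were in 2.98% of all 32851 promoters and in 2.83% of the 9191 tested genes found there by symbol. Of the interferon list, 16 genes were found and 6 had a match. Of the 12 among these 16 that were called lower in H3.3K27M, 4 had a match, so members that were not called matched as well. The 90 bases around the matches of these 4 are shown 5′ to 3′, to place the element in genes whose levels are given here, with the matching letters of either strand in capitals and the RefSeq coordinates (Isg15 at chr4:156200847-156200936 on the minus strand, Ifit1 at chr19:34640745-34640834 on the plus strand, Ifit3 at chr19:34583333-34583422 on the plus strand and Gbp3 at chr3:142559954-142560043 on the plus strand).
Isg15: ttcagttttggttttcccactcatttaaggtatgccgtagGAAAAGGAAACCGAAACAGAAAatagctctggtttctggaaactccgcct
Ifit1: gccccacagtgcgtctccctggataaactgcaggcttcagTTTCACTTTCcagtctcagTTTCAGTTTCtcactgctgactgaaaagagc
Ifit3: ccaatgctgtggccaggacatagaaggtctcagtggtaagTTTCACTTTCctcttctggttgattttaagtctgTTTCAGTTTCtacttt
Gbp3: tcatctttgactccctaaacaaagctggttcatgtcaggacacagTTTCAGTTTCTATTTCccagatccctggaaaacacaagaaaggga
These genes were chosen for the match. Their levels were 0.282 and 0.652 against 13.2 and 11.1 CPM for Isg15, 0 and 0.391 against 3.39 and 3.67 CPM for Ifit1, 0.704 and 0 against 2.71 and 2.55 CPM for Ifit3 and 2.40 and 1.30 against 7.71 and 5.71 CPM for Gbp3, higher in both WT-H3.3 libraries in each. The cyclic AMP response element TGACGTCA (1.55% of all promoters) was in 2 of 17 immediate early promoters, none of a called gene, and the sterol element letters (ATCAC, any base, CCAC, in 0.19% of all promoters) were in none of 14 promoters of cholesterol genes.

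Immediate early genes, induced by growth factors and stress, had none higher and 14 of 21 lower in H3.3K27M (median -2.76). Egr1 had 136 and 99.3 CPM in H3.3K27M and 823 and 1124 CPM in WT-H3.3 (8.29-fold lower), and Ccn1, a matricellular target of SRF and YAP, had 19.3 and 17.5 CPM in H3.3K27M and 339 and 453 CPM in WT-H3.3 (21.5-fold lower). Klf4 was 15.3-fold lower (5.64 and 7.30 against 102 and 96.3 CPM), Egr2 50.5-fold lower (0.986 and 0.391 against 37.8 and 31.9 CPM) and Atf3 15.3-fold lower (1.27 and 2.22 against 28.1 and 25.9 CPM). Targets of p53 were lower for 9 of 23 and higher for none (median -0.30), or for 1 without the 72 h H3.3K27M library. Mdm2, the p53 ligase, was 2.93-fold lower (338 and 296 against 893 and 967 CPM), Polk, a translesion polymerase gene, 4.25-fold lower (22.4 and 25.8 against 98.6 and 106 CPM) and the death receptor gene Fas 6.21-fold lower (4.37 and 4.95 against 26.9 and 31.2 CPM). Cdkn1a, p21, had 342 and 274 against 656 and 689 CPM and was within 2-fold without the 72 h H3.3K27M library (log2 fold change -0.97). Hypoxia genes had 7 of 17 lower and none higher (median -0.50), among them Egln3 (5.93-fold lower, 13.0 and 10.6 against 61.9 and 77.6 CPM), Adm (4.79-fold lower, 22.7 and 22.3 against 119 and 95.99 CPM) and P4ha2 (27.98-fold lower, 0.564 and 1.17 against 20.6 and 29.5 CPM).

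Lists of metabolic and housekeeping genes were then counted. Cholesterol synthesis had 5 of 21 genes higher and none lower (median 0.65), with Acat2 2.44-fold higher (313 and 289.7 against 98.5 and 149 CPM), Dhcr7 2.76-fold higher (45.8 and 46.7 against 16.2 and 17.3 CPM), Tm7sf2 2.57-fold higher (56.5 and 52.8 against 16.4 and 26.3 CPM) and Fdps at 84.0 and 80.2 against 43.2 and 35.9 CPM, the last of them within 2-fold without the 72 h WT-H3.3 library (log2 fold change 0.91). Fatty acid synthesis had 1 of 21 tested members higher and 2 lower in H3.3K27M (median log2 fold change 0.35), and the number higher was 5 without the 72 h WT-H3.3 library and 2 without the 72 h H3.3K27M library. Elovl2, which elongates polyunsaturated chains, was 6.71-fold higher (102 and 73.0 against 10.8 and 15.5 CPM) and Elovl7 2.95-fold lower, and Fads3 had 11.7 and 7.04 against 18.6 and 24.6 CPM and was within 2-fold without the 72 h H3.3K27M library (log2 fold change -0.88). Glycolysis had 1 of 21 tested members higher and 4 lower in H3.3K27M (median log2 fold change -0.18). The neuronal glucose transporter gene Slc2a3 (5.66-fold lower, 14.8 and 14.6 against 88.5 and 77.8 CPM), the kinase genes Pfkp (16.9-fold lower, 4.37 and 3.39 against 74.5 and 56.7 CPM) and Pfkfb3 (3.06-fold lower) and the enolase gene Eno2 (11.9-fold lower, 1.27 and 2.35 against 23.6 and 20.1 CPM) were lower, and Eno1 was higher (2.34-fold higher, 39.5 and 35.3 against 15.3 and 16.6 CPM). In the list of the unfolded protein and integrated stress responses, 7 of 29 were higher and 5 lower (median 0.19). The higher ones included the mitochondrial one-carbon enzymes Shmt2 (3.74-fold higher, 93.0 and 95.4 against 26.2 and 24.1 CPM) and Mthfd2 (3.99-fold higher, 134 and 205 against 31.7 and 53.7 CPM) and the serine enzyme Psat1 (2.15-fold higher, 225 and 247 against 102 and 117 CPM), while the transcription factor genes Ddit3 (4.05-fold lower, 2.82 and 8.86 against 17.9 and 30.3 CPM) and Atf4 (573 and 811 against 1724 and 1349 CPM) were lower. Atf4 was within 2-fold without the 24 h library of either line (log2 fold change -0.92 and -0.97). Lysosomal genes had 4 of 29 lower (Ctsl 3.97-fold lower, 70.6 and 60.5 against 242 and 277 CPM) and none higher (median -0.39). Ribosomal protein genes had 1 higher (Rpl22l1) and 1 lower (Rpl24) of 75 (median 0.28), and nuclear genes of oxidative phosphorylation 1 higher (Ndufc2) and none lower of 72 (median 0.00). These 3 calls, all near 2-fold, were lost without 1 or other of the libraries (log2 fold change without 1 library from 0.79, from -0.73 and from 0.95, respectively), and 3 ribosomal protein genes were higher without the 72 h WT-H3.3 library.

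Genes of tissues outside the nervous system were mostly higher in WT-H3.3, in many cases with levels at or near 0 in H3.3K27M. The fibroblast and matrix list had 1 of 22 tested members higher and 20 lower in H3.3K27M (median log2 fold change -4.48), and its 1 higher member, Thy1, is also a neuronal gene and was within 2-fold without the 24 h WT-H3.3 or the 72 h H3.3K27M library (log2 fold change 0.81 and 0.94). Smooth muscle and pericyte genes had none higher and 10 of 13 lower (median -4.13, or -3.74 with genes at 0 at their bound), such as Acta2, smooth muscle actin (50.1-fold lower, 0.986 and 0.261 against 33.2 and 29.3 CPM), the tropomyosin gene Tpm1 (3.75-fold lower, 128 and 116 against 458 and 458 CPM) and the PDGF receptor gene Pdgfrb (43.8-fold lower, 0.845 and 0.261 against 18.05 and 30.8 CPM). Of the 6 smooth muscle and pericyte genes left by the stricter filter, 3 were lower. Endoderm genes had 10 of 11 lower (median -4.38, or -3.71 at the bound). Of the 5 left by the stricter filter, 4 were lower. Lamb1 (6.19-fold lower, 81.9 and 81.6 against 469 and 543 CPM) and Lama1 (26.4-fold lower, 2.96 and 1.96 against 52.1 and 77.7 CPM), laminin chains of basement membranes, were joined by Spink1 (0.282 and 0.261 against 8.22 and 14.8 CPM) and Sox17 (20.8-fold lower, 0.282 and 0.782 against 9.40 and 13.8 CPM). All 8 epithelial genes tested were lower (median -3.78), among them Krt18 (34.2-fold lower), the desmoplakin gene Dsp (0.282 and 0.13 against 6.35 and 8.16 CPM) and Perp (11.1-fold lower, 2.68 and 3.26 against 33.8 and 32.4 CPM). Only 2 epithelial genes passed the stricter filter, both lower. Endothelial genes had 6 of 9 lower and none higher (median -1.70), with Flt1 at 0 and 0.652 against 9.997 and 14.7 CPM, while Pecam1 was not called (1.13 and 0.521 against 1.52 and 2.86 CPM, adjusted p = 0.0551). The stricter filter left 2 endothelial genes, 1 of them lower.

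The lists for neural crest, meninges and choroid plexus leaned the same way under the default filter. The stricter filter left 7 neural crest genes, with 2 higher and 2 lower, so their lean was not kept. It left 6 meningeal genes, with 1 higher and 2 lower, and 1 gene of choroid plexus and motile cilia, which was not called. Neural crest genes had 2 of 13 tested members higher and 7 lower in H3.3K27M (median log2 fold change -1.58). Twist1 (4.00-fold lower, 2.54 and 2.48 against 9.23 and 10.9 CPM) and Snai2 (20.8-fold lower, 0.986 and 0.521 against 13.98 and 17.6 CPM), factors of delamination, were lower, and Sox5 (2.96-fold higher, 76.1 and 93.2 against 26.8 and 30.4 CPM), which also acts in OPCs, and Gas7 (3.48-fold higher, 58.5 and 60.5 against 15.7 and 18.6 CPM) were higher. Meningeal genes had 1 of 10 tested members higher and 6 lower in H3.3K27M (median log2 fold change -2.19), and the higher member, Ptgds, makes prostaglandin D2 in meninges and oligodendrocytes (9.65-fold higher, 26.1 and 30.2 against 3.13 and 2.65 CPM). Choroid plexus and motile cilia genes had 1 of 10 tested members higher and 5 lower in H3.3K27M (median log2 fold change -2.12), with Ttr, transthyretin, at 0.282 and 0.261 against 7.46 and 8.98 CPM (28.9-fold lower). Its higher member, Dnaic1, had at most 12 counts in a library and lost its call without any 1 library (adjusted p from 0.111 to 0.396). Cartilage, bone and fat genes had 2 of 8 tested members higher and 3 lower in H3.3K27M (median log2 fold change -0.60), of which Col9a3 was 4.88-fold higher (20.9 and 23.5 against 3.64 and 5.51 CPM) and Alpl had 18.6 and 47.2 against 13.8 and 17.5 CPM, with a log2 fold change of 0.25 without the 72 h H3.3K27M and 0.91 without the 24 h WT-H3.3 library. Of 4 skeletal and cardiac muscle genes tested, 3 were higher (median 2.08), with Myh8 at 11.1 and 12.5 against 4.49 and 5.61 CPM, although the muscle factors Myod1 and Myog were at 0.

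Genes of pluripotent cells went to both sides while the core factors Pou5f1 and Nanog were under the filter. The list had 5 of 13 tested members higher and 7 lower in H3.3K27M (median log2 fold change -1.94), and 3 were higher without the 24 h H3.3K27M library. The median turned to 0.39 when the libraries were thinned to the smallest total. Esrrb had 15.8 and 13.6 CPM in H3.3K27M and 1.61 and 1.43 CPM in WT-H3.3 (9.53-fold higher), and Nr5a2, another nuclear receptor gene, had 7.47 and 7.95 CPM in H3.3K27M and 0.254 and 0.306 CPM in WT-H3.3 (26.5-fold higher). Klf5 (18.7-fold lower, 2.68 and 3.13 against 55.9 and 53.4 CPM), Tbx3 (31.3-fold lower, 0.845 and 0.521 against 22.3 and 21.01 CPM) and Klf4 were lower. These 3 genes are also expressed in mesenchymal and epithelial cells, whose part in these values was not tested. Of 3 germline genes tested, Tex19.1 and Brdt were lower, both with calls that were lost without 1 library (adjusted p of up to 0.255 and 0.0783).

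Imprinted genes had 4 of 23 tested members higher and 9 lower in H3.3K27M (median log2 fold change -0.26). H19 and Meg3, the maternally expressed noncoding RNAs of their domains, were 19.13-fold lower (8.59 and 4.82 against 99.6 and 156 CPM) and 26.3-fold lower (18.9 and 10.2 against 379.7 and 381 CPM). Dlk1, paternally expressed in the domain of Meg3, was lower with it, while Nnat, neuronatin, was 4.87-fold higher (148 and 118 against 24.6 and 29.99 CPM) and Peg12 2.47-fold higher (139.9 and 140.2 against 53.8 and 59.6 CPM). Among Polycomb subunits, 7 of 31 were higher and 3 lower (median 0.16). Ezh2, the methyltransferase that H3.3K27M binds, was 3.03-fold higher (164 and 172 against 48.2 and 63.1 CPM), Suz12 2.06-fold higher (69.6 and 68.3 against 33.8 and 33.3 CPM), Cbx2 3.87-fold higher (25.9 and 20.6 against 5.68 and 6.32 CPM) and Phc1 2.51-fold higher (130.3 and 116 against 48.2 and 49.8 CPM), whereas Pcgf5 (3.18-fold lower) and Phc3 (3.07-fold lower) were lower. Ezh1, the paralogue of Ezh2 in resting cells, had 14.7 and 10.4 against 28.6 and 26.3 CPM and was within 2-fold without the 72 h H3.3K27M library (log2 fold change -0.90). In the list of H3.3 genes, chaperones and H3K27 enzymes, 2 of 22 were higher (H3f3a and the H3.3 chaperone gene Hira, 49.7 and 38.97 against 21.01 and 20.3 CPM) and none lower (median 0.28), and Hira was within 2-fold without the 24 h H3.3K27M library (log2 fold change 0.92). Of the Y-linked genes, whose median over 5 tested was -0.65, Ddx3y was 3.14-fold lower (58.9 and 72.3 against 210.1 and 203 CPM) and Kdm5d 2.99-fold lower (1.83 and 2.22 against 4.91 and 7.34 CPM), the latter with an adjusted p of 0.0833 in the joint fit with ESCs.

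Cell cycle genes, for scale, were higher for 33 of 42 replication genes and 44 of 52 mitosis genes and lower for none (medians 1.51 and 1.56). Top2a was 4.83-fold higher (812 and 826 against 154 and 186 CPM) and Timeless 6.38-fold higher (58.6 and 56.3 against 9.66 and 8.26 CPM). Of the G1 regulators, 11 of 24 were higher and 4 lower (median 1.00), or 2 lower without the 72 h H3.3K27M library. E2f8 was 4.75-fold higher (48.3 and 60.1 against 9.49 and 13.5 CPM) and Cdkn2c, the p18 inhibitor of progenitors, 3.66-fold higher (29.2 and 34.4 against 7.37 and 10.1 CPM), while Cdkn2b, the p15 inhibitor, was 7.55-fold lower (6.48 and 11.1 against 67.3 and 66.1 CPM) and Cdk6 5.86-fold lower (36.9 and 42.6 against 225 and 241 CPM).

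**Figure D4:**
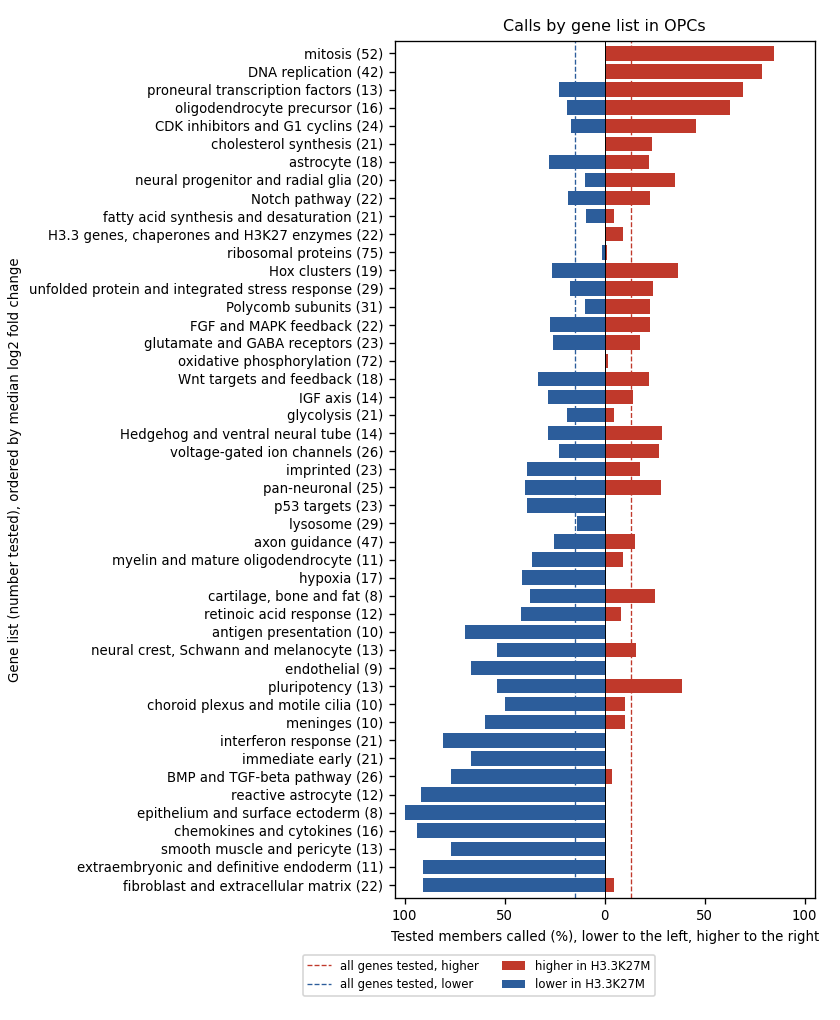
Percent of the tested members of each gene list called higher (red, to the right) and lower (blue, to the left) in H3.3K27M OPCs, for the 47 lists with at least 8 tested members, ordered by median log2 fold change, with dashed lines at the 12.9% higher and 15.0% lower among all genes tested. Mitosis, replication, proneural and OPC genes reach furthest to the right, and the fibroblast, endoderm, chemokine, epithelial and reactive astrocyte lists reach over 90% to the left.

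Whether the undifferentiated cells of the same lines already differed was asked in a joint fit with the 8 ESC libraries of both lines at 24 and 72 h, which share no library with the OPCs. In that fit edgeR called no gene between the lines in ESCs, of 14964 tested, with 819 (5.47%) at an unadjusted p under 0.05. The fit held no term for Dox time, so the absence of calls does not show that the ESC lines were alike. The study describes several genes, Vegfa and Grin1 among them, as reproducibly upregulated in ESCs that expressed H3.3K27M. The OPC line difference differed from the ESC line difference in 2447 genes (16.4% of those tested), 1061 above 0 (7.09%) and 1386 below (9.26%). Of the genes called higher in H3.3K27M OPCs, 895 of the 1578 in the fit passed this test of the difference in the same direction, and of those called lower, 1187 of 1861. Without the 24 h WT-H3.3 OPC library the number above 0 was 669. Some of the genes are active in ESCs: Fn1 had a median of 1392 CPM in WT-H3.3 and 1658 CPM in H3.3K27M ESCs, with a log2 fold change of 0.31 ± 0.22 there and -5.23 ± 0.17 in OPCs. Stmn2 was likewise at a median of 323 and 264 CPM in WT-H3.3 and H3.3K27M ESCs (log2 fold change -0.14 ± 0.21). Tle6, which had medians of 11.6 and 13.2 CPM there (log2 fold change 0.14 ± 0.21), had a difference between the cultures of 4.25 in log2 (adjusted p = 5.81e-07). Ccl2 and Ccl7 had no count in any ESC library, so the line difference of ESCs could not be estimated for them. Medians of the lists in ESCs lay between -0.63 (Hox clusters) and 0.53 (hypoxia), with no member called.

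**Figure D5:**
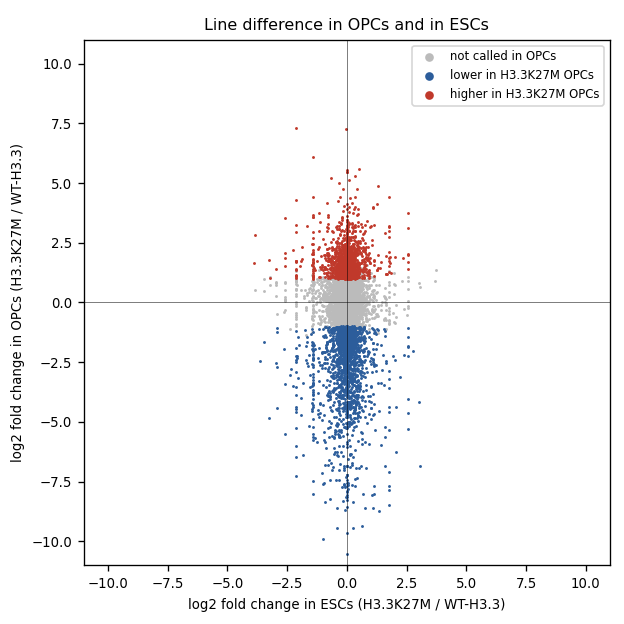
Log2 fold change (H3.3K27M over WT-H3.3) of each gene in ESCs on the x axis and in OPCs on the y axis, with genes called in OPCs in red (higher) and blue (lower). The points stretch along the y axis in both directions and lie around 0 on the x axis, where vertical rows of points are genes with a few counts in ESCs.

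The RA-treated cells of the same lines, with 1 library per line and Dox time, gave a second comparison, in which Dox time was a term of the fit within each culture. The line difference in OPCs differed from that in RA-treated cells in 2562 genes (18% of 14257 tested), 959 above 0 (6.73%) and 1603 below (11.2%). Of the genes called higher in H3.3K27M OPCs, 812 of 1561 passed the test in the same direction, and of those called lower, 1334 of 1855. Sox3 had a log2 fold change of 0.75 in RA-treated cells, and the difference from OPCs was 2.24 (adjusted p = 1.86e-05). Fn1 had -0.19 there, with a difference of -5.03 (adjusted p = 2.45e-10). This second count rests on the Dox-time term: without it edgeR called no gene, with 1678 at an unadjusted p under 0.05.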

How the data were processed

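RNA was extracted with RNeasy kits, made into libraries with the QuantSeq 3′ or the KAPA kit (which one was used for a given library is not stated) and sequenced single-end on a NextSeq500. The authors deposited raw read counts per gene, made per the study's methods by aligning reads to mm9 with STAR 2.7.1, which the submitters' processing notes also name. 3′ libraries count ends of transcripts, and the kit of each library is not known. Levels of different genes, and sums over genes, are therefore only rough to compare. The 55471 genes of the OPC count table were placed by GENCODE vM1 (32589 matched). The study leaves out chromosome 8, which held 5.76 to 5.99% of the counts, and so was done here (2532 genes, of which 1097 were placed by their position in the table).

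The counts of the 4 OPC libraries were fitted in edgeR 4.0.16 (R 4.3.3) with TMM factors, the default low-count filter by line and a mean for each line. Genes were called by the quasi-likelihood F test at a Benjamini-Hochberg adjusted p under 0.05 and a fold above 2 or below 0.5. Standard errors are approximate, computed as the absolute log2 fold change over the square root of F. Joint fits with 8 ESC and 4 RA libraries tested the difference between line differences. For a line at 0, folds were computed against 3 counts over both of its libraries. On simulated data with 200 changed genes of 12467, 76% were recovered at 2.5-fold and 93% at 4-fold, and 7 unchanged genes were called. Depth ranged from 7499258 to 12387113 counts per library.

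The 53 gene lists were written by hand, and they and the members were chosen with earlier results of these data known. Genes named are the 12 of lowest p in each direction among called genes whose lines do not overlap, up to 4 called members of lowest p per list and direction (or the 2 members of highest level where none was called), H3f3a, H3f3b, Sox2, Nanog and the cell type markers. A few genes that the rule takes in are not reported here. Alternatives changed the tool (DESeq2 1.42.0), scaling, filter, fold threshold, block, depth and libraries in the fit. Count columns that could be tied to no sample were not used.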

Additional observations from a re-analysis of the deposited data

Results flagged for a closer look

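Of the 24 genes of lowest p in OPCs, 19 had a line difference in OPCs that differed from that in ESCs by edgeR's test of the difference itself. The genes were chosen by their OPC difference, which is a term of this test, and the test was passed by 16.4% of all genes tested and, in the same direction, by 56.7% of the genes called higher and 63.8% of those called lower in OPCs. On the H3.3K27M side the differences in log2 fold change, OPC minus ESC, were 4.25 for Tle6, 3.27 for Sox3, 2.55 for Trp53i11, 2.87 for Sall3, 3.3 for Fzd9, 2.92 for Prkcb, 3.65 for Pou3f1, 2.57 for Rcor2 and 4.99 for Ccbe1. On the WT-H3.3 side they were -5.08 for Hspb8, -5.84 for Vgf, -5.52 for Fn1, -5.54 for Emp1, -5.82 for Col3a1, -4.21 for Hbegf, -7.38 for Lgals3, -4.49 for Myof, -4.81 for Clu and -7.42 for Stmn2. Vgf, Col3a1 and Prkcb were at medians under 1 CPM in both ESC lines.

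Single ESC libraries stood apart from the other 3 of their group for 4 of these genes. The gap of the outlying library over the range of the group was 1.0 for Lmo3 in WT-H3.3, 1.0 for Syt1 in both WT-H3.3 and H3.3K27M, 0.966 for Trp53i11 in H3.3K27M and 0.92 for Col3a1 in WT-H3.3. The critical value is one that chance passes in about 1 in 20 groups. That rate does not apply to Lmo3 and Syt1, where a ratio of 1.0 follows once a single library holds any count and the others hold none. Each gene was screened in both lines, so some groups pass by chance, and each group mixed both Dox times. For Lmo3, Syt1 and Col3a1 the highest library was at most 0.848 CPM. Trp53i11 ranged from 8.32 to 19.6 CPM in H3.3K27M ESCs.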

How the results depend on the processing

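Of the 284 named genes called, 240 stayed called in the same direction under every alternative that gave them an adjusted p, 44 lost the call under 1 or more, and none reversed. The 3482 called genes became 2309 with at least 10 counts required in every library (1120 lower in H3.3K27M), a filter that removes genes near 0 in 1 line, 5320 at a 1.5-fold threshold (2580 higher) and 6423 with no fold threshold (3120 higher and 3303 lower). Without 1 library at a time they ranged over 3088 to 3658 in all, 1339 to 1623 for the higher and 1749 to 2035 for the lower genes, and the lone library was assumed to vary like the other line. DESeq2 called 2989, of which 2849 were shared with edgeR. The replicate block, which is the Dox time, gave 3507 calls, 3457 of them shared. The changes from 24 to 72 h of the 2 lines correlated at 0.139, a single value that does not show that the numbers pair the libraries beyond Dox time.

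The OPC minus ESC difference called 1736 to 1935 genes without 1 OPC library (669 to 821 above 0, the fewest without WT-H3.3 replicate 2 of 24 h, at 669, and 1030 to 1150 below), and the cause was not tested. The OPC minus RA difference called 1990 to 2264 without 1 OPC library (725 to 885 above 0 and 1246 to 1394 below) and, with no replicate block, 0 genes in edgeR, with 0 above and 0 below and 1678 at an unadjusted p under 0.05. Of 530 list medians recomputed, 75 moved by more than the spread, and 2 changed sign. The pluripotency median was 0.39 with libraries thinned to the smallest total, and the FGF and MAPK median was -0.17 without H3.3K27M replicate 1 and 0.28 without replicate 2. Under DESeq2 the lower calls were 1 for myelin, 3 for glutamate and GABA receptors and 2 for dorsal neural tube genes. Of the called genes, 66 had no count in either H3.3K27M library and 2 none in either WT-H3.3 library, so their folds are bounds set by depth.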

Other observations

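The gene families below were chosen after their values had been seen, so their counts are descriptions, to be read beside 12.9% higher and 15.0% lower among all genes tested. Several members near 0 in H3.3K27M passed the filter through WT-H3.3 alone and could hardly be called higher. Examples are Penk (0.141 and 0 against 5.85 and 6.83 CPM) and Ereg (0 and 0 against 3.98 and 6.02 CPM). Of 8 S100 genes tested, all 8 were lower in H3.3K27M OPCs, with S100a6 at 12.7 and 5.995 against 546 and 523 CPM, and so were 6 of 7 annexins, with Anxa2 at 166 and 102 against 1337 and 936 CPM and Anxa3 at 0.704 and 0.652 against 57.4 and 54.0 CPM, and 2 of 4 galectins. EGF family ligands were lower for 5 of 7, including Areg, amphiregulin (1.27 and 0.391 against 29.9 and 33.5 CPM). Dense-core vesicle genes, which store and process neuropeptides, were lower for 8 of 9, among them Scg2 (6.76 and 12.8 against 172 and 216 CPM) and Ptprn (0.423 and 0.13 against 36.1 and 32.6 CPM). The remaining gene, Scg3, had a log2 fold change of 0.72 and was not called. The neurotrophic factor gene Bdnf was lower as well (5.92 and 7.43 against 77.2 and 60.2 CPM). Of 6 prostaglandin enzymes, 3 were lower, including Ptgs2 (0.845 and 0 against 26.6 and 43.0 CPM), and Ptgds was higher. The gastric secreted protein genes Gkn1, Gkn2 and Pga5 were all lower, with Gkn2 at 9.44 and 6.78 against 144 and 239 CPM.

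Clock genes were lower for 9 of 13 and higher for none. Per1 had 22.4 and 22.8 against 162 and 173 CPM, Nr1d2 had 35.1 and 40.4 against 255 and 238 CPM and Ciart had 1.41 and 2.61 against 36.9 and 29.0 CPM. The 4 genes not called were within 2-fold and also below 0. Their log2 fold changes were -0.96 for Cry1, -0.65 for Arntl, -0.62 for Clock and -0.58 for Cry2. By edgeR their adjusted p were 0.000424, 0.0106, 0.00718 and 0.0526 in that order. The hour at which cultures were harvested is not given in the sources used here.

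On the H3.3K27M side, 3 of 6 Groucho (TLE) corepressor genes were higher, Tle6 with Tle2 (33.96 and 27.5 against 1.86 and 1.94 CPM) and Tle5 (778 and 769.9 against 301 and 295 CPM), as were all 3 SOXC factors, 2 of 3 POU3 factors and, of 3 SOXB factors, Sox3 alone. Among the synaptotagmins, 3 of 8 were higher and 2 lower, Syt4 being at 4.51 and 2.22 against 163 and 117 CPM. CaM kinase genes split as well, 4 of 9 higher, such as Camk1g (52.98 and 41.7 against 3.90 and 3.47 CPM), and 2 lower, such as Camk2d (13.9 and 12.5 against 72.7 and 63.6 CPM). Of 14 enzymes of serine and one-carbon metabolism, 7 were higher and 1 lower. In the nuclear lamina, Lmnb1 had 844 and 784 against 151 and 185 CPM and was higher, while Lmna had 41.8 and 29.5 against 156 and 144 CPM and was lower. Mitochondrially encoded genes were higher for 6 of 14, of which 5 encode tRNAs, 4 of them under 6 CPM in every library.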
